A study of Caenorhabditis elegans with 2 samples.

Results

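The regions described are the transfer RNA (tRNA) gene loci of chromosome X in Caenorhabditis elegans, in a map of where a tagged copy of the protein T26A8.4 was bound. The members were all genes annotated as tRNA on chromosome X of the WBcel235 assembly by Ensembl release 115, each taken as the gene body plus 200 bp on both sides. There were 276 of them, out of 612 tRNA genes in the nuclear genome and 46890 annotated nuclear genes in all. The rule itself uses no measured value. The map came from chromatin immunoprecipitation sequencing (ChIP-seq) with an antibody against GFP in whole L4 larvae of strain OP692, aged 48 hours. These animals carried the integrated transgene wgIs692, which makes T26A8.4 fused to a tag of TY1, EGFP and 3xFLAG, with unc-119(+) as its rescue marker in an unc-119(tm4063) background. All cells of the larva were pooled, so a peak does not say in which tissue the protein was bound, and a fusion protein from a transgene stands in for the native one. There was 1 group with 2 biological replicates and no other condition, so the comparisons are between loci and between replicates. RefSeq describes T26A8.4 as a protein with a C3H1-type domain, a kind of zinc finger.

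A tRNA carries an amino acid to the ribosome and pairs with a codon of the messenger RNA. Its gene is transcribed by RNA polymerase III from a promoter inside the gene, made of an A box near the start and a B box further along, both of which are contacted by the factor TFIIIC. TFIIIC brings TFIIIB to the DNA just upstream of the start, TFIIIB recruits the polymerase, and transcription stops at a short run of T after the gene. Many tRNA genes are exact copies of each other, and in worms an unusually large part of them lies on chromosome X, often inside introns of protein-coding genes.

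The gene bodies below are from loci with some of the strongest peaks, not all of which had their summit inside the gene. They show the internal promoter that the loci share. They were read from the WBcel235 sequence of chromosome X, 5′ to 3′ on the gene's strand. F15G9.t1 and F15G9.t2 are tRNA-Ala genes under 1 peak, R04A9.t1 is a tRNA-Gln gene, F46G11.t2 a tRNA-Pro gene, C33G3.t2 a tRNA-Lys gene and C04A11.t1 a tRNA-Leu gene with an intron. Capitals mark the A box match and then the B box match.
F15G9.t1: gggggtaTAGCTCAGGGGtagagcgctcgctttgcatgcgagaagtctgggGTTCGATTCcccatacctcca
F15G9.t2: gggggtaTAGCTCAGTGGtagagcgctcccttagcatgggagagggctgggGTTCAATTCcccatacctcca
R04A9.t1: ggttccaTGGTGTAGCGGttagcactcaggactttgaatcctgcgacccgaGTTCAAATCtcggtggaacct
F46G11.t2: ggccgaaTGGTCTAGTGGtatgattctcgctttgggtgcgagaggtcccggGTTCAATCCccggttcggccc
C33G3.t2: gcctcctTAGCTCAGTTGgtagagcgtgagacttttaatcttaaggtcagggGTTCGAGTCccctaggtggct
C04A11.t1: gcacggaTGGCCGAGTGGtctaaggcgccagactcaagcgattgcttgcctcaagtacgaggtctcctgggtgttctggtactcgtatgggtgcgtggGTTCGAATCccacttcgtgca

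The B box was searched as GTTCNANNC on the gene's strand, where N is any base, and was found in 268 of the 276 gene bodies (97.1%). A median match began at base 52 of the gene. Of 246096 windows of 72 bp laid end to end along chromosome X, 2.64% held the same letters on either strand. An 11-base A box pattern was found in the first 30 bases of 271 genes (98.2%), against 2.43% of X windows of that length. A run of 4 T lay within 50 bp after the gene in 273 of 276, at a median of 5 bp. So few members lacked a match that the boxes and the T run hardly divide them.

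A locus was counted as having a summit when the point of highest signal of a peak lay within it. The main peak list was the thresholded list of both replicates together, called the combined set, with 2993 summits. There were 1933 summits in replicate 1's thresholded list, 2141 in that of replicate 2 and 2810 in the conservative list of both. Ranked lists, which run far below the threshold, had 66732 to 70405. Each peak has a signal, a score of the authors. Signals are set against each other only inside 1 list, except where the replicates are compared over the same loci. Read depth is not given in these lists, so the depth behind a peak is unknown. Intervals are 95% Wilson intervals for shares and Newcombe intervals for differences. They cover counting error only, and neighbouring loci that share a summit are not independent.

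Of the X tRNA loci, 116 of 276 held a combined-set summit (42.0%, interval 36.4 to 47.9) and 160 did not. Among all annotated nuclear genes with the same flanks the share was 5.75%, a difference of 36.3 percentage points (30.6 to 42.2), over genes whose lengths differ from that of a tRNA gene. Among protein-coding genes it was 8.17%. Windows of 472 bp laid end to end along X, the median length of a locus, held a summit in 1.39% of cases. The tRNA loci covered 0.68% of chromosome X and took 104 of its 554 summits (18.8%).

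The autosomes held 168 summit-bearing tRNA loci of 336 (50%). X minus autosomes was -7.97 points, with an interval of -15.7 to -0.0341 that ends next to 0. In replicate 1's own list the difference was 0.893 points in the other direction, and in replicate 2's list it was -4.61 points. The autosomes did not form 1 level. Chromosome X stood at 42.0%, against 61.4% on II, 62.5% on III, 50% on I, 45.1% on IV and 35.9% on V. In the ranked lists X also stood lower, at 58.0% against 69.3% in the combined list and 57.2% against 68.5% in the conservative one. Replicate 1's ranked list gave 65.9% against 72.9%, and replicate 2's gave 60.5% against 67.3%. In the conservative thresholded list the shares were 39.1% and 47.6%. X thus stood lower in every list except replicate 1's thresholded one, and the size of the difference depended on the list used.

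The 160 loci without a combined summit were not all empty. A further 25 held a thresholded summit in another list, which brings the loci with a summit in any thresholded list to 141 (51.1%, interval 45.2 to 56.9). Another 39 had a combined ranked summit and none in a thresholded list, and 38 of these were also in at least 1 replicate's ranked list. A further 20 had a ranked summit in another list but not in the combined one. The remaining 76 loci (27.5%) had no summit in any of the 8 lists. The combined ranked list put a summit at 160 loci (58.0%), against 21.9% of the 472 bp windows of X. The first summit-free loci by position were B0344.t3 and B0344.t1, a pair of tRNA-Ile genes in an intron of wrt-9, and the tRNA-Arg genes ZK380.t1 and C36C9.t2. Absence from a list says only that no peak was listed there: 23 of the 276 loci had no summit of any ranked list within 5000 bp.

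Most loci with a peak in replicate 2 also had one in replicate 1. Both replicates placed a thresholded summit at 84 X loci, which is 73.0% of the 115 loci of replicate 1 and 84.8% of the 99 loci of replicate 2. Both had one in 0.629% of the X windows. Replicate 1 alone marked 31 loci, replicate 2 alone marked 15 and neither marked 146. Of the 116 combined loci, 79 were past the threshold in both replicates, 17 in replicate 1 only, 10 in replicate 2 only and 10 in neither.

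Where both replicates listed a peak at an X locus, ranked or thresholded, the signals ran in parallel. Spearman's rho was 0.86 over 151 such loci, given as a description because loci that share a peak are not independent. The median signal at those loci was 77.3 in replicate 1 and 74.2 in replicate 2. Among the loci with a combined summit, C16B8.t3, a tRNA-Pro gene, lay farthest from the diagonal with 4.56 in replicate 1 and 117 in replicate 2. There replicate 2's summit was 154 bp upstream of the gene start, within the locus of its neighbour C16B8.t2, where replicate 1 had a signal of 133.

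**Figure D1:**
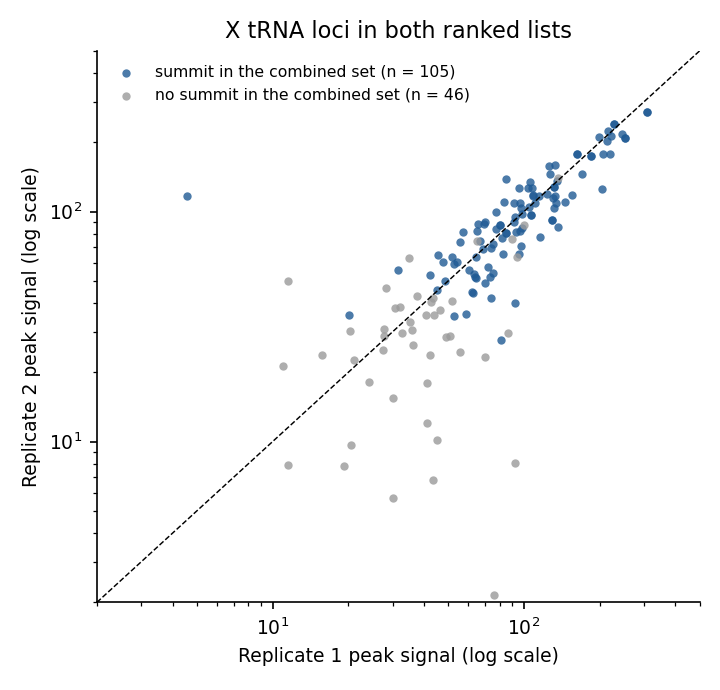
Peak signal at X tRNA loci listed in both replicates' ranked lists, with replicate 1 on the x axis and replicate 2 on the y axis, both on log scales. Blue points are the 105 loci with a combined-set summit and grey points the 46 without, the dashed line marks equal signal, and blue points hold the upper end.

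A few loci were strong in both replicates and still absent from the combined set. There were 5, named after their values were seen. C40H5.t1, a tRNA-Leu gene, had a signal of 137 in replicate 1 and 140 in replicate 2, and its nearest combined ranked summit was 34278 bp away. C40C9.t1, a tRNA-Thr gene, had 99.7 in replicate 1 and 87.7 in replicate 2. F12D9.t2, F18G5.t2 and C30E1.t1 were the others, with 65.2 to 93.4 in replicate 1 and 63.2 to 76.3 in replicate 2. No combined ranked interval overlapped any of these genes, so the combined set left out loci that each replicate called. Why they were absent was not tested.

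The 104 distinct summits lay in 103 peak intervals, with a median width of 420 bp, the same median as for other X peaks. Of these summits, 87 fell in 1 tRNA locus and 17 in the flanks or bodies of 2. Inside a tRNA gene body lay 67 of them (64.4%). A promoter window of a protein-coding gene, reaching 1000 bp upstream and 200 bp downstream of its start, also contained 18.

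Peaks at these loci were stronger than the typical peak but were not the strongest on X. Their median signal was 183, against 117 at the other X summits and 123 over the whole combined set. The median tRNA summit on X was at the 75.1st percentile of the combined set, with quartiles at 49.2 and 83.4. At autosomal tRNA loci the median signal was 153 and the median percentile 65.7. In the replicates' own lists the X median stood at percentile 63.5 for replicate 1 and 68.1 for replicate 2. Among the 104 summits, 53 were in the upper 25% of the combined set and 6 in the upper 5%. The highest had a signal of 572, and 21 other X summits were higher, up to 1594.

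The strongest peak lay between M02F4.t2, a tRNA-Glu gene, and M02F4.t1, a tRNA-Gly gene, which face away from a common stretch of 116 bp. Its summit at chrX:3036145 had a signal of 572 in the combined set, 308 in replicate 1 and 271 in replicate 2. The summit was 19 bp upstream of M02F4.t1 and 98 bp upstream of M02F4.t2. Both replicates placed it within 2 bp of that point. The nearest protein-coding start, that of M02F4.2, was 1673 bp away.

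Second came the head-to-head tRNA-Ser pair C53C7.t2 and C53C7.t1, with 466 in the combined set, 252 in replicate 1 and 209 in replicate 2. The third, at 463, lay in an intron of him-4, which encodes hemicentin, an extracellular matrix protein. It covered the tRNA-Ala genes F15G9.t1 and F15G9.t2, which point the same way and differ at 7 of 72 bases. Replicate 1 gave this peak 227 and replicate 2 gave it 241.

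The locus of R04A9.t1 had a signal of 451, with 245 in replicate 1 and 218 in replicate 2. That summit, at chrX:410265, was outside the gene, upstream of its start at chrX:410391. C28G1.t1, a tRNA-Glu gene that overlaps an exon of C28G1.2 and begins 97 bp from that gene's start, had 439. Its peak could belong to either gene, because the summit was also in the promoter window of C28G1.2. The tRNA-Tyr gene R11.t1 had 435, and F41D9.t3, a tRNA-Asn gene in an intron of sulp-3, had 421. C33G3.t2 followed at 395 and C04A11.t1 at 384. The tRNA-Tyr gene C02B4.t2, in an intron of the nuclear receptor gene nhr-17, had 364. A peak of 362 over the tRNA-Gly pair T10B10.t2 and T10B10.t1 and one of 353 at the tRNA-Pro pair F46G11.t2 and F46G11.t1 completed the 12 strongest. The summit of 353 was 2 bp upstream of F46G11.t2 and 188 bp upstream of F46G11.t1, and its interval ended before F46G11.t1. F46G11.t1 had another summit 16 bp past its own start, in the combined ranked list only. All 12 peaks passed the threshold in both replicates, and 5 of them served a pair of tRNA genes.

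At the other end, the 3 weakest combined summits were second summits at loci with a stronger one. K11E4.t6, a tRNA-Lys gene, had a summit of 8.93 beside one of 100. C28G1.t2, a tRNA-Gly gene, had 8.97 beside 213, and R04A9.t1 had 23.4 beside 451. On the far side of the threshold, the highest ranked peaks at loci with no thresholded summit were 87.9 at C25F6.t2 (tRNA-Met), 85.3 at R04D3.t4 (tRNA-Tyr) and 81.5 at F08F1.t1 (tRNA-Leu). Signal alone did not set the threshold, which was on the score that the authors derived from the irreproducible discovery rate.

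Summits sat close to the start of the tRNA gene. Where a locus held 2 or more summits, as 5 did, the one nearest the start was taken, whatever its signal. At R04A9.t1 that was the summit of 23.4, 73 bp past the start, and not the one of 451. Over the 116 loci the median summit was 11.5 bp past the first base, with quartiles at -20.2 and 42.2 bp. It was upstream of the start at 39 loci, inside the gene at 67 and past its end at 10. Replicate 1 gave a median of 8.0 bp and replicate 2 one of 9.0 bp. At the 79 loci called in both replicates and in the combined set, the replicates' summits were a median of 18 bp apart, which is more than the distance from the median to the start. The autosomal median was 13.0 bp over 168 loci.

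Summits upstream of the start were mostly near another tRNA gene. At the 66 loci with no other tRNA gene within 500 bp the median was 23.0 bp, with quartiles at 7.0 and 43.8, and 52 summits (78.8%) were inside the gene. Of the 39 upstream summits, 31 had another tRNA gene within 500 bp. The position of a shared summit is measured from both genes, so it counts once for each.

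**Figure D2:**
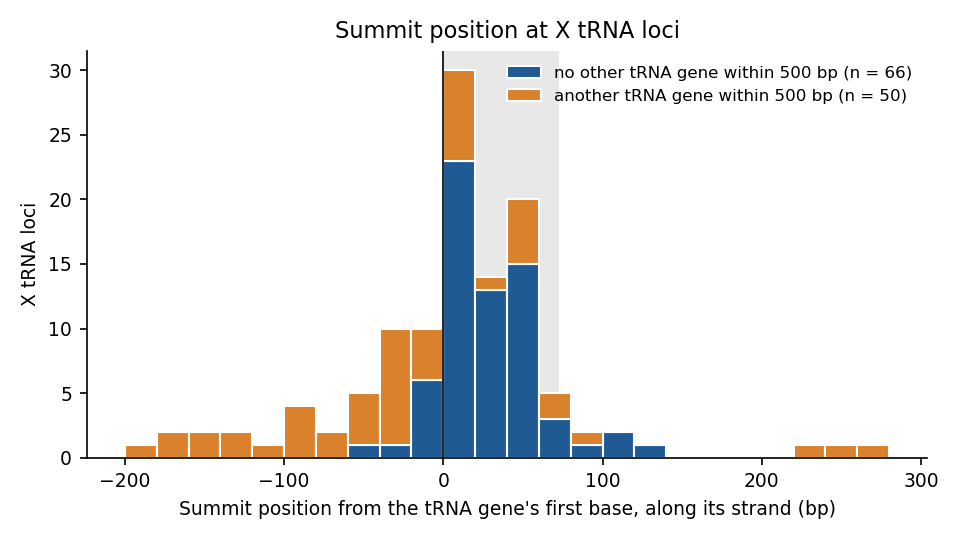
Position of the combined-set summit nearest the gene start at 116 X tRNA loci, in bp from the first base along the strand, with the number of loci on the y axis. The grey band is a gene of median length, blue is loci with no other tRNA gene within 500 bp and orange the rest, and the blue bars are gathered inside the gene.

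tRNA genes of chromosome X often lie in runs. Joining genes with gaps of at most 1000 bp gave 54 runs with 135 genes and 141 single genes. A summit was at 59 of 135 genes in runs (43.7%) and at 57 of 141 single genes (40.4%), a difference of 3.28 points with an interval of -8.27 to 14.7. Counted by run, 36 of 54 held at least 1 summit (66.7%), but a run offers more genes than a single locus. Every gene had a summit in 14 runs, some genes had one in 22 and none did in 18.

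In each of the 4 largest runs, 2 of 6 genes and 2 of 5, some genes had a combined summit and others had none. The run of 6 genes F22F1.t2 to F22F1.t7, at chrX:8154445-8156707, had 3 summits that served 4 genes. The Asp gene F22F1.t3 had a signal of 171, F22F1.t4 (Ser) and F22F1.t5 (Asp) shared one of 128, and F22F1.t7 (Ile) had 92.5. The summit of 128 was 43 bp upstream of F22F1.t5. It was 247 bp past the start of F22F1.t4, beyond that gene's end, and F22F1.t4 had no summit in replicate 2's lists. F22F1.t3 passed the threshold in replicate 2 only and F22F1.t7 in replicate 1 only. F22F1.t2 (Ser) and F22F1.t6 (Met) had no combined summit, though F22F1.t6 passed in replicate 1 with 50.9. The run of 6 tRNA-His genes F28H6.t2 to F28H6.t5 had summits at its outer genes only, 117 at F28H6.t2 and 128 at F28H6.t5. Both outer genes passed the threshold in replicate 1, with 70.1 and 71.7, and neither passed it in replicate 2, with 49.1 and 57.7. In replicate 1 the summit of 70.1 also lay in the locus of the inner gene F28H6.t7. The 4 inner loci have little unique sequence: 42.3% of the 50-base words at F28H6.t7 occur once in the genome, 8.51% at F28H6.t3 and F28H6.t4 and 9.93% at F28H6.t6, against 88.7% at F28H6.t2 and 55.3% at F28H6.t5. How reads with several matches were treated is unknown here, so an unbound inner gene and one whose reads were not placed cannot be told apart. In the K01A12 run of 5 genes, 1 summit of 273 served the Cys genes K01A12.t5 and K01A12.t4, which share a body, and not the third copy K01A12.t2. That summit was inside K01A12.t4 and 174 bp upstream of K01A12.t5. In the H08J11 run, of the same size, 1 summit of 193 served the Gln genes H08J11.t2 and H08J11.t3 and the other 3 genes had no combined summit. It was inside H08J11.t3, 54 bp past its start. From the start of H08J11.t2 it was 264 bp, beyond that gene's end, and H08J11.t2 had no summit in either replicate's lists. H08J11.t5 and H08J11.t1 had a thresholded summit of 84.5 in replicate 1 and none in replicate 2.

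Orientation was examined after the data were seen. On X, 25 neighbouring pairs within 1000 bp were head to head, with their starts facing, 39 pointed the same way and 17 were tail to tail. A summit was at 1 or both genes in 17 head-to-head pairs (68.0%, interval 48.4 to 82.8), 20 same-direction pairs (51.3%, 36.2 to 66.1) and 10 tail-to-tail pairs (58.8%, 36.0 to 78.4). These intervals overlap. Both genes had one in 11 head-to-head, 7 same-direction and 2 tail-to-tail pairs. A single summit served both genes in 11, 4 and 2 of these pairs. The median gap was 161 bp head to head, 409 bp in the same direction and 178 bp tail to tail. With flanks of 200 bp, 1 summit can count for both genes of a close pair, so these counts do not separate orientation from gap. The order by orientation was another on the autosomes, where 21 of 26 head-to-head pairs (80.8%) and 16 of 18 same-direction pairs (88.9%) had a summit at 1 or both genes.

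**Figure D3:**
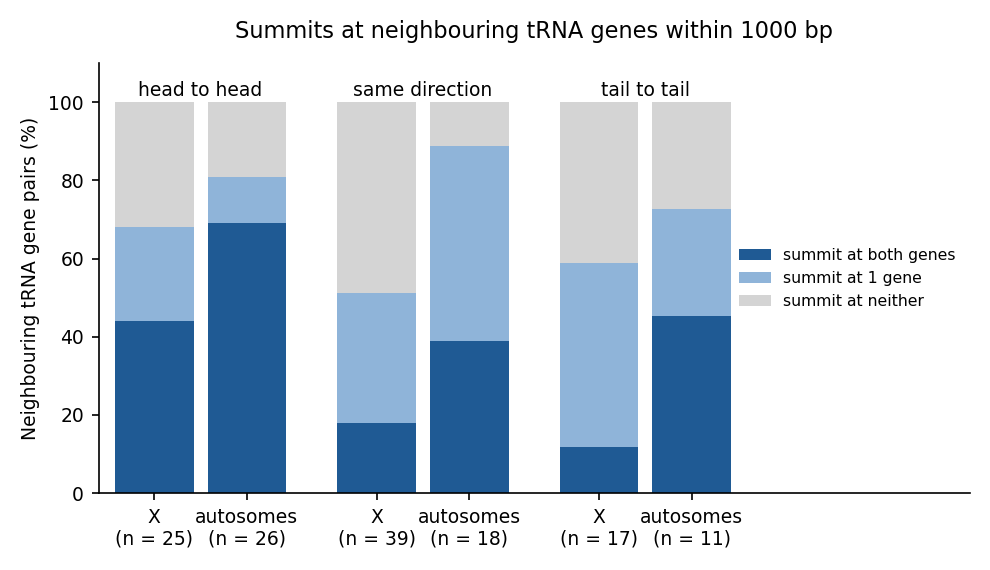
Share of neighbouring tRNA gene pairs within 1000 bp, in percent, with a combined-set summit at both genes, at 1 gene or at neither, for pairs on X and on autosomes by orientation. On X, dark blue is tallest in the 25 head-to-head pairs, 11 of which had a summit at both genes, each time a single shared one. Median gaps on X were 161 bp head to head, 409 bp in the same direction and 178 bp tail to tail.

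Among tRNA genes with the same sequence, some had a summit and others did not. The 276 X genes had 106 distinct bodies, and 33 bodies occurred at least 2 times on X, in 203 genes. Of these 33, 28 had a combined-set summit at some X copies and not at others, 2 had one at every copy and 3 at none. The 3 include a tRNA-Thr body with 4 X copies. All 4 had a ranked summit, and 1 had a thresholded summit in both replicates. All 20 bodies with at least 5 X copies were mixed, in the combined set and in each replicate's own thresholded list. Of all X tRNA loci, 42.0% held a summit in the combined set, 41.7% in replicate 1's list and 35.9% in replicate 2's. At such shares a body with many copies would seldom have a summit at all or at none, so the count alone says little about identical copies. Leaving out the loci with under 50% unique 50-base words, a choice made after seeing the data, 19 of the 20 were mixed in the combined set. The exception was the tRNA-His body, whose copies without a summit are the 4 inner F28H6 genes. When any ranked summit counted, 17 of the 20 were still mixed. Across all bodies with both outcomes, 88 of 187 genes had a summit.

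**Figure D4:**
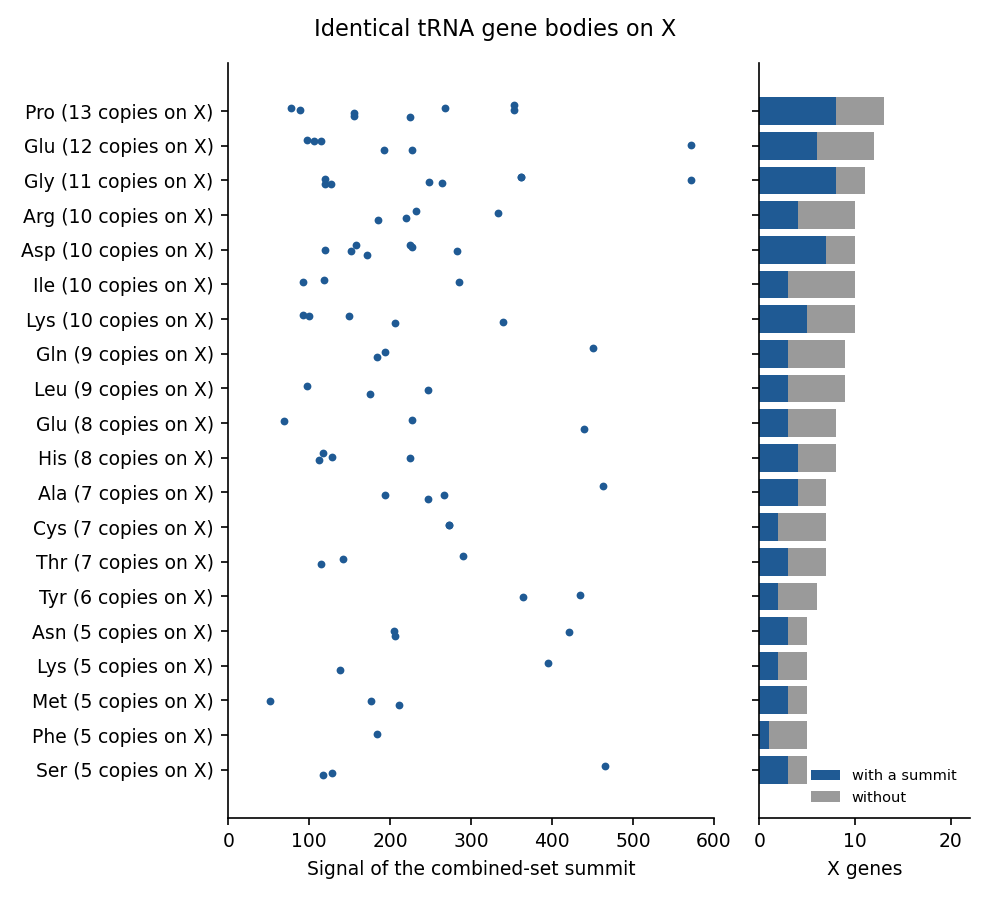
The 20 tRNA gene bodies with at least 5 identical copies on X, 1 row each and named by amino acid, with the signal of each combined-set summit on the left and the number of X genes with and without a summit on the right. Every row has both blue and grey genes, the grey ones of His being loci with little unique sequence, and signals within a row spread up to 572.

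The tRNA-Tyr body is 84 bp long with an intron of 11 bp, and all 6 of its copies in the genome are on X. R11.t1 had a signal of 435, with 221 in replicate 1 and 212 in replicate 2. C02B4.t2 had 364, with 207 in replicate 1 and 178 in replicate 2. The other copies had no combined summit, and their ranked ones were weaker than those of R11.t1 and C02B4.t2. F56F10.t1 had 73.8 in the combined ranked list, R11.t4 had 27.4 and R11.t3 had 27.0, while R11.t2 had 6.54 in replicate 2 only. R11.t1 to R11.t4 form a run of 4 on 1 strand, within 1590 bp, in which R11.t1 is the most upstream. The copies are shown with 60 bp before and 30 bp after the gene, those with a summit first, and with the A and B boxes in capitals, because the gene itself is the same in each.
R11.t1: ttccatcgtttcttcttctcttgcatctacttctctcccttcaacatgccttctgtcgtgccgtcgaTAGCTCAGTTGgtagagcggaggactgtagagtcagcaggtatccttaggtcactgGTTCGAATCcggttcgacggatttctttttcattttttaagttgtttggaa
C02B4.t2: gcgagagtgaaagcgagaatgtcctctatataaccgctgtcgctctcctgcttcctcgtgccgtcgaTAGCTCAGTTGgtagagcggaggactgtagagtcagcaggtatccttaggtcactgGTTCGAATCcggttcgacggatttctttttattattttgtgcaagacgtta
R11.t2: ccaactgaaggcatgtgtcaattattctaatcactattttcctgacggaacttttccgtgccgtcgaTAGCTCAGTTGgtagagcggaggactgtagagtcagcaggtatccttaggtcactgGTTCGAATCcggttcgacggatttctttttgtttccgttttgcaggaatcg
R11.t3: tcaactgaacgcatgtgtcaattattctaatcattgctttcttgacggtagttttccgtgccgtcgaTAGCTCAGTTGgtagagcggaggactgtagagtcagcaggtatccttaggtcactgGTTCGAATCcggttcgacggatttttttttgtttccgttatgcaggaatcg
R11.t4: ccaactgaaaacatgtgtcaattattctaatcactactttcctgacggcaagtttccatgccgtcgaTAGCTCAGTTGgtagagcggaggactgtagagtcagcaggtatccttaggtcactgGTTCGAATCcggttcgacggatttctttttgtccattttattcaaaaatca
F56F10.t1: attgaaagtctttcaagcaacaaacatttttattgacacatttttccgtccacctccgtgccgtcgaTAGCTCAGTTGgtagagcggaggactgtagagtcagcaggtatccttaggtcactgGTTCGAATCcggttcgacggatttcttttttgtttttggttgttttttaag

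Upstream of the gene the copies differed. R11.t2, R11.t3 and R11.t4 shared 50 to 53 of the 60 upstream bases with each other, compared without gaps. R11.t1 shared 19 to 21 of 60 with those 3 copies and 13 of 60 with C02B4.t2, the other strong copy. The 60 bases thus set R11.t1 apart from its neighbours but did not join it to C02B4.t2. These comparisons were chosen after the values were seen.

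The largest body that is found only on X is a tRNA-Arg gene of 73 bp with 10 copies. Of these, 4 had a summit: C18A11.t2 at 333, F09B9.t1 at 232, T06H11.t2 at 219 and C14F11.t1 at 185. At F09B9.t1, T06H11.t2 and C14F11.t1 the summit was inside the gene, 49, 56 and 42 bp past its start. At C18A11.t2 it was beyond the gene's end, 123 bp past the start, in an interval of 835 bp with 2 summits. Its signal was 106 in replicate 1 and 135 in replicate 2. K01A12.t3, F12D9.t4, T06H11.t3, F09B9.t2, T01C1.t1 and C03A3.t1 had none. T06H11.t2 and T06H11.t3 lie 220 bp apart, tail to tail, both within introns of the potassium channel gene unc-58. T06H11.t2 had 91.5 in replicate 1 and 109 in replicate 2, while T06H11.t3 had 11.5 in replicate 1 and 7.95 in replicate 2. C18A11.t2 and T06H11.t2, with a summit, and T06H11.t3 and F09B9.t2, without, are printed in that order with the same flanks and capitals.
C18A11.t2: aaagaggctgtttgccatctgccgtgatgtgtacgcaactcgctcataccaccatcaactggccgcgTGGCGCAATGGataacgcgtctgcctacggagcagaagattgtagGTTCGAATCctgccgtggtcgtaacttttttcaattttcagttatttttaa
T06H11.t2: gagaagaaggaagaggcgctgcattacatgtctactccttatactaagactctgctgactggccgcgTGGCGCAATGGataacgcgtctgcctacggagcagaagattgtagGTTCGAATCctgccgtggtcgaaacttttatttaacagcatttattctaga
T06H11.t3: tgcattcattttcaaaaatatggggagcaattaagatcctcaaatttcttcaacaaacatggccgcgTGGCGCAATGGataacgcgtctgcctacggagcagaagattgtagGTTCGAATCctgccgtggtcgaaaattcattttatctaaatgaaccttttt
F09B9.t2: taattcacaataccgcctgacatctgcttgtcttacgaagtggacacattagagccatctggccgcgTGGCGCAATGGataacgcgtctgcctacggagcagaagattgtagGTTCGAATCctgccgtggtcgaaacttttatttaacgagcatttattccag

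The 60 upstream bases of T06H11.t2 matched those of T06H11.t3 at 11 positions, those of F09B9.t2 at 17 and those of F09B9.t1, which had a summit, at 14. As the A and B boxes are the same in all 10 copies, they cannot tell the copies with a summit from those without.

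Genes with several copies of the same body in the genome had a summit more often. On X the difference between several copies and 1 copy was not beyond counting error in the combined set. They had one in 99 of 221 cases (44.8%), and genes with a body found once in 17 of 55 (30.9%), a difference of 13.9 points with an interval of -0.715 to 26.4 that includes 0. That difference was 20.2 points in replicate 1's list and 8.47 points in replicate 2's. By copy number the shares were 30.9% (20.3 to 44.0) for 1 copy, 40.6% for 2 to 5 and 34.0% for 6 to 10. They were 42.9% for 11 to 15 and 54.0% (43.6 to 64.1) for 16 to 29. On the autosomes, genes with several copies stood at 56.6% and those with 1 copy at 30.6%, a difference of 26 points (13.8 to 36.6). Signals did not follow: the median was 192 for several copies and 193 for 1 copy. Genes with several copies have less unique sequence, and the authors' rule for reads that match more than 1 copy was not stated in the labels or files. At the 5 X loci where under 50% of 50-base words were unique in the genome, 0 had a combined summit (interval 0.0 to 43.4). They are the 4 inner F28H6 genes and T25D1.t2, a tRNA-Phe gene.

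By amino acid, the share of X genes with a summit ran from 69.2% for Ala to 0.0% for Trp. Ala had 9 of 13, Asp 8 of 12 and Pro 13 of 20, and their strongest members were F15G9.t1 at 463, F38G1.t2 at 283 and F46G11.t2 at 353. His had 5 of 9 with C06G1.t1 at 225, Ser 10 of 18 with C53C7.t2 at 466, and Gly 11 of 20 with M02F4.t1 at 572. Asn had 3 of 6 with F41D9.t3 at 421, and Met 4 of 8 with C02F12.t1 at 211. Val had 6 of 14 with F59C12.t3 at 197, Glu 9 of 23 with M02F4.t2 at 572, and Lys 7 of 18 with C33G3.t2 at 395. Ile had 5 of 13 with C42D8.t1 at 285. Of these strongest members, F38G1.t2 and F59C12.t3 passed the threshold in replicate 1 and had no summit in replicate 2, not even a ranked one.

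In the lower part, Leu had 6 of 17 with C04A11.t1 at 384, and Gln 5 of 15 with R04A9.t1 at 451. Cys had 2 of 7, K01A12.t4 and K01A12.t5, both through 1 summit of 273 that lay inside K01A12.t4. Arg, the largest family on X, had 7 of 27 with C18A11.t2 at 333. Tyr had 2 of 8 with R11.t1 at 435, Thr 3 of 14 with ZK563.t1 at 290, and Phe 1 of 6, K08B5.t1 at 184. Most intervals span the overall 42.0%. Those of Ala (42.4 to 87.3) and Pro (43.3 to 81.9) lay just above it, and with 20 families compared such intervals are no test of a difference. Families also differ in body sequence and in position. RefSeq gave no amino acid for 3 X genes, and none of them had a summit.

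Trp had none. Its 5 X genes include sup-7, sup-21, sup-28 and sup-33, which are known for mutant alleles that read stop codons and which share 1 body. The interval for 0 of 5 is 0.0 to 43.4, and 4 of 7 autosomal tRNA-Trp genes (57.1%) had a summit. sup-7 did have a thresholded summit in replicate 1, 4 bp past its start and with a signal of 87.1, and no ranked one in replicate 2. The other named Trp genes had no summit in any list. Thr and Arg also stood lower on X than on the autosomes in the combined set, at 21.4% and 65.0% for Thr and at 25.9% and 58.8% for Arg. The Thr count on X depended on the list. Of its 14 X genes, 3 had a combined summit, 4 a thresholded summit in both replicates and 10 a ranked one. Some others passed in 1 replicate only, such as T25B6.t2 at 124 in replicate 1 and R01H5.t1 at 136 in replicate 2. Other families stood higher on X, such as Ser at 55.6% and 33.3%, Ala at 69.2% and 47.6%, Asp at 66.7% and 46.7% and His at 55.6% and 36.4%. In all, the X share was the higher in 8 of the 20 families and the lower in 12. These gaps were picked from 20 families after the shares were known.

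**Figure D5:**
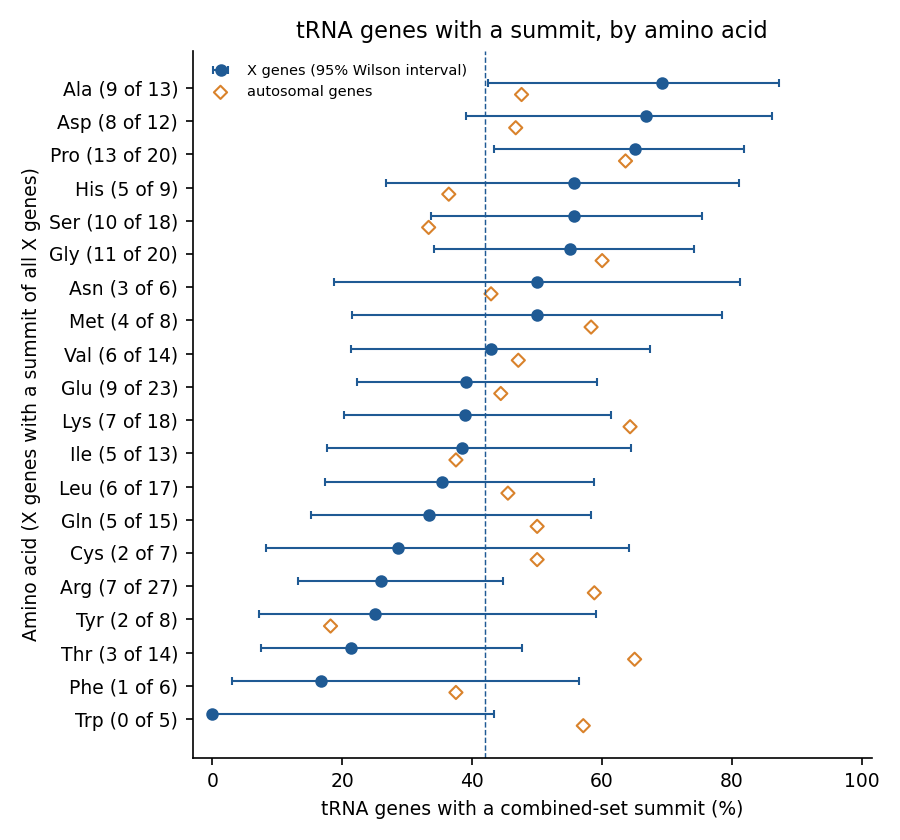
Share of tRNA genes with a combined-set summit, in percent, by amino acid, with X genes as blue points with 95% Wilson intervals and autosomal genes as orange diamonds. The dashed line is the share of all X tRNA genes, 42.0%, and most intervals cross it.

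Loci near a protein-coding start held a summit a little more often, by less than counting error when split at 1000 bp. Of the X tRNA loci within 1000 bp of a protein-coding start, 33 of 67 had a summit (49.3%), against 83 of 209 farther away (39.7%). The difference of 9.54 points had an interval of -3.89 to 22.9. When only starts upstream of the tRNA gene were counted, 21 of 32 loci with one had a summit (65.6%), against 95 of 244 without (38.9%), a difference of 26.7 points (8.29 to 41.9). On the autosomes that difference was 3.61 points (-9.38 to 16.3), at 37 of 70 against 131 of 266. Summits were also present where no such start was near: of 98 X loci with neither another tRNA gene nor a protein-coding start within 1000 bp, 37 had one (37.8%), with a median signal of 197.

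Loci inside and outside protein-coding genes differed by less than counting error. Loci outside protein-coding genes had a summit in 73 of 180 cases (40.6%), and those inside in 43 of 96 (44.8%). Within a host gene, 19 of 51 tRNA genes on the host's strand had one (37.3%), and 24 of 45 on the opposite strand (53.3%), a difference of -16.1 points with an interval of -34.3 to 3.71.

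Sequence inside the gene did not separate the loci either. The B box matched in 113 of 116 genes with a summit (97.4%) and in 155 of 160 without (96.9%). GC content of the gene body had a median of 58.3% in both. All 5 genes with no A box match and all 3 with no T run after the gene lacked a summit, counts too small to read. Of the 12 genes with an annotated intron, 5 had a summit (41.7%), with a median signal of 364. All 12 had a ranked summit in at least 1 list. The 200 bp upstream had a median GC content of 39.0% at loci with a summit and 35.5% at loci without. Such a stretch can include a neighbouring tRNA gene. The quartiles overlapped, at 35.0 to 43.1% with a summit and 31.4 to 40.5% without.

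Other genes of the same polymerase were looked up for comparison. The protein genes listed were 16 of RNA polymerase III, its factors and its repressor, and rop-1, which encodes the Ro RNA-binding protein. Of these 17, 2 had a combined summit in the promoter window (11.8%), near the 7.06% of all protein-coding genes. They were rpc-2, which encodes the second largest subunit of the polymerase, with a signal of 124, and rpac-19, a subunit shared with RNA polymerase I, with 222. Genes of TFIIIC (tftc-1, tftc-3 and tftc-5), of TFIIIB (brf-1 and tbp-1) and of the repressor MAF1 (mafr-1) had none. The RNase P RNA gene rpr-1, also transcribed by this polymerase, had a summit of 602, above every X tRNA summit. Of 16 annotated 5S ribosomal RNA genes, 0 had a combined summit, although 3 had a ranked line past the threshold that the combined set does not hold. The Y RNA gene yrn-1 had none.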

How the data were processed

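ChIP-seq of T26A8.4-eGFP was described from 8 deposited peak lists on ce11, the same assembly as WBcel235. They hold the authors' peak positions, the peak's integer score and its signal, which is also a score, per the file headers and labels. Sonicated chromatin from whole larvae was precipitated with anti-GFP, per the labels' protocols. The aligner, the peak caller and the rule for reads that match several places, not given in the sources used here, were left as unknown. No control library was used here. The lists give no read counts, and the thresholded lists hold scores of 830 and over.

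A summit was taken as the peak's start plus its summit offset. Genes came from Ensembl release 115, and names, amino acids and introns from RefSeq, which matched 276 of 276. Copies are exact matches of the gene body on either strand of the genome. Distances run from the first base along the strand. No result has a test: shares have 95% intervals, and loci are not replicates. Members, gene lists and groupings were chosen with earlier results of these data known. The loci named are those of the 12 strongest and 3 weakest peaks, the 3 strongest without a thresholded summit, the 3 largest runs (and 1 more, H08J11, that ties with the smallest of these), the strongest member of each amino acid with at least 5 genes, and the first 4 without any summit. Others are examples of identical copies or are said to have been chosen later. Some gene body sequences are not reported here. A few ranked lines past the threshold (31) are absent from the combined set, 0 of them at X tRNA loci. The locus and interval functions were tested on simulated data. Intervals came from statsmodels 0.14.6 and SciPy 1.17.1, tables from pandas 2.3.3 and NumPy 2.4.6 in Python 3.11.15, and figures from Matplotlib 3.10.9. Alternatives were other lists, flanks, overlap rules, run gaps and motif forms.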

Additional observations from a re-analysis of the deposited data

How the results depend on the processing

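Each of the 12 results was recomputed under its alternatives, 82 in all, and 68 stayed within 1.5 times a count or within the interval of the main value. With no flank, 67 X tRNA loci held a summit and the excess over all annotated genes was 21.0 points. That excess was 29.7 points with the 50% of summits of highest signal, 43.7 with flanks of 1000 bp and 44.0 when any of the 4 thresholded lists counted. The last of these was chosen after seeing the data. Leaving out 1 replicate gave X minus autosomes as -4.61 to 0.893 points. Only replicate 1's thresholded list put X higher, and all the ranked lists put it lower. With 1 replicate left out, the median percentile of X peaks ran from 63.5 to 68.1. From either replicate's list alone, 1 of the protein genes listed for RNA polymerase III was called. The ranked lists of both replicates shared 151 loci in place of 84. Loci with no other tRNA gene within 500 bp had a median offset of 23.0 bp. Clusters counted once exceeded single loci by 26.2 points, and starts on the upstream side gave 26.7 points. The B box form with G only, chosen after seeing the data, gave -4.55 points for genes with minus without a summit, against 0.539. The cause of these shifts was not tested, except that wider flanks and larger units take in more summits. No paired analysis was possible because there is only 1 group. With read depth unknown, a locus without a summit cannot be called unbound.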
